A study of Mus musculus with 12 samples.

Results

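The genes described here are 37 liver-made proteins of blood clotting and of complement, the plasma defence system that marks and lyses microbes. They were taken by symbol from a named list. Of the 37, 36 were found among the 28030 gene identifiers of the counts table, and all 36 were among the 12086 genes that passed the filter on low counts. Klkb1, which encodes plasma prekallikrein, was not analysed here. RNA was sequenced from hepatocytes of wild-type (WT) female mice, 12 weeks old and on normal chow, in 4 groups of 3 libraries that the labels call biological replicates. Within a liver lobule, periportal hepatocytes (PP) sit where blood enters and pericentral hepatocytes (PC) where it leaves; the zones were isolated with digitonin, a detergent that permeabilises the cells on the side from which it is infused. All mice were trained for 3 days to fast for 16 h and to feed for 8 h a day, and on the day of the experiment received food with drinking water holding 20% sucrose. The fed groups were taken 4 h into that meal. Fasted mice lost both food and sucrose water at that hour and were killed 24 h later, so fasting here includes the removal of sucrose. The groups are called fed PC, fed PP, fasted PC and fasted PP.

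Clotting runs as a chain of proteases made by the liver as inactive precursors. Factor VII with tissue factor, or the contact factors XII and XI, lead through factors IX and X to thrombin (F2), which cuts fibrinogen into fibrin, while antithrombin, protein C and protein S hold the chain back and plasminogen dissolves the clot. Complement is started by antibody through C1, by sugars through mannose-binding lectins, or by C3 itself with factor B, and ends with C5b to C9 forming a pore in a membrane. Hepatocytes are the main source of most of these plasma proteins, and factors II, VII, IX and X and proteins C and S need vitamin K for a carboxylation that lets them bind membranes.

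Levels are given as CPM, counts scaled to a common library size by TMM, which corrects for differences in library composition. Library totals ran from 16245846 to 27449412 estimated counts, and genes of a few CPM carry wide counting error. The zone labels were checked on 8 genes known to be pericentral and 8 known to be periportal, all 16 of which differed in the direction of their label over both feeding states. One library stood apart: Glul, the glutamine synthetase gene of the cells next to the central vein, was at 172 CPM in fasted PC replicate 1 against 3639 and 2353 CPM in fasted PC replicates 2 and 3. That library was the highest of the 3 fasted PC libraries for 28 of the 36 genes, a count that was not made over all genes. It was also highest for 11 of the 13 genes called lower in PC over both feeding states. The calls that change when it is left out are therefore given beside the results. Leaving it out lowers the fasted PC mean of every gene for which it was highest. Calls of a lower level in PC or in fasted PC that are gained in that way are no separate support. Summed markers of other liver cells were at 6.43 to 32.5 CPM for 11 endothelial genes, 0.979 to 12.5 CPM for 11 Kupffer cell genes and 2.69 to 22.7 CPM for 10 stellate cell genes. Red cell genes were uneven, with 5 summed markers at 8.91 to 47.5 CPM in the fed libraries, 5.10 to 440.6 CPM in fasted PC and 5.62 to 147 CPM in fasted PP. Summed markers of platelets (6 genes, of which Gp9 was at 0 in every library) were at 1.22 to 1.83 CPM in fed and 2.94 to 4.06 CPM in fasted libraries. In such bulk samples, fewer cells of a type and less RNA per cell cannot be told apart. A gene is called changed at a Benjamini-Hochberg adjusted p under 0.05 in edgeR's quasi-likelihood test over all 12086 genes, and differences are log2 fold changes ± the standard error (SE), positive where PC exceeds PP or fasted exceeds fed.

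The 36 genes held 3.39% ± 0.09 (SD, n = 3) of all counts in fed PC, 4.23% ± 0.20 in fed PP, 3.87% ± 0.30 in fasted PC and 4.43% ± 0.13 in fasted PP. C3, the central complement protein, had by far the highest level per kilobase of transcript, at a mean of 6577 CPM per kb over the 12 libraries, which becomes 2560 CPM per kb if the length of all annotated exons is used in place of the mean transcript length. By mean transcript length the next were Fga (the fibrinogen alpha chain) at 1340 CPM per kb, Kng1 (kininogen) at 1288, Vtn (vitronectin, an inhibitor of the terminal pore) at 1261, Fgg at 1176 and F2 at 1063 CPM per kb. By the length of all exons the order after C3 was Vtn at 1083, Fga at 1039, Fgg at 965, Fgb at 807 and Kng1 at 665 CPM per kb. At the bottom stood C6, a component of the pore, at 1.13 CPM per kb, then Proc (protein C) at 11.9, F11 (factor XI) at 12.3, Pros1 (protein S) at 14.5 and Mbl1 (mannose-binding lectin A) at 17.1 CPM per kb. C6, at 0.206 to 6.49 CPM per library, was close to the floor of detection.

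**Figure D1:**
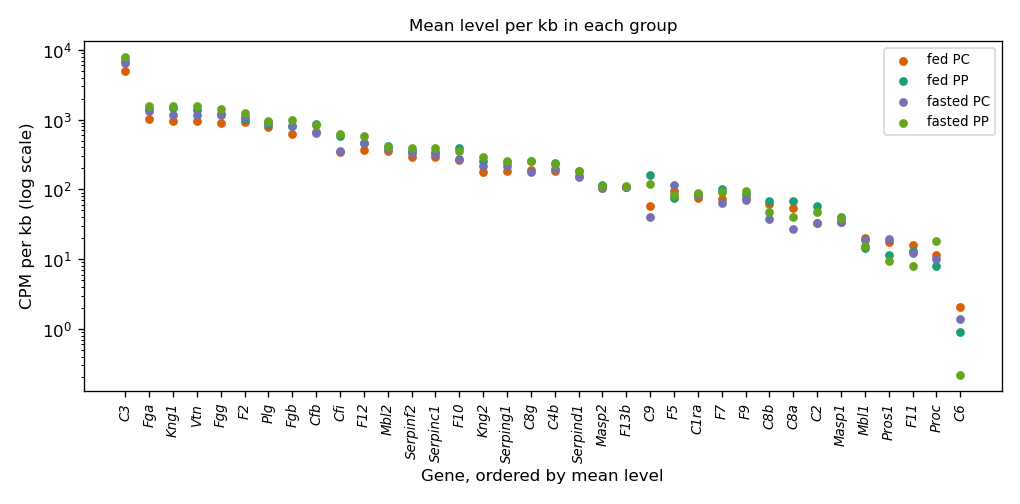
Mean level of each of the 36 genes per kilobase of transcript (CPM per kb, log scale) in the 4 groups, each point the mean of 3 libraries, with genes ordered by their mean over all libraries. C3 lies highest in every group and C6 lowest in every group.

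The first question was whether the zones differed in these genes. Over both feeding states, 13 of 36 were called lower in PC and 2 higher, where 6.5% of all genes tested were called lower and 6.47% higher. The median log2 difference of the 36 genes was -0.30, beside -0.01 for all genes, and 31 of the 36 values were negative. In fed mice 8 genes were called lower and 1 higher in PC, against a background of 2.47% lower and 2.24% higher, and their median was -0.31. In fasted mice 5 were lower and 2 higher, against 3.05% and 3.35% of all genes, and their median was -0.28. Scaling by total counts alone changed the balance of calls over all genes, to 1.99% lower and 3.12% higher in fed mice, 2.50% and 4.92% in fasted mice, and 5.12% and 10.4% over both; the listed genes were then 6 lower and 1 higher, 2 lower and 2 higher, and 11 lower and 4 higher. Without fasted PC replicate 1 the calls rose to 20 lower and 4 higher over both states, beside 7.11% and 6.92% of all genes. In fasted mice they rose to 11 lower and 3 higher, beside 4.2% and 3.9% of all genes. Without fed PP replicate 2 the calls in fed mice fell to 1 lower and 0 higher, beside 1.25% and 1.23% of all genes. Albumin (Alb), the most abundant product of hepatocytes, moved the same way: it took 7.05% ± 0.21 of counts in fed PC, 11.4% ± 0.81 in fed PP, 7.67% ± 0.90 in fasted PC and 12.6% ± 0.63 in fasted PP, a log2 difference of -0.79 ± 0.08 between zones (adjusted p = 6.2e-05). With Alb left out of the counts before scaling, the listed genes were again 13 lower and 2 higher over both states, with a median of -0.30. Summed markers of bile duct cells were also higher in PP, at 37.02 to 47.7 CPM in fed PP and 34.2 to 38.1 CPM in fasted PP against 24.1 to 28.1 CPM in fed PC and 13.6 to 25.3 CPM in fasted PC; their part was not tested.

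**Figure D2:**
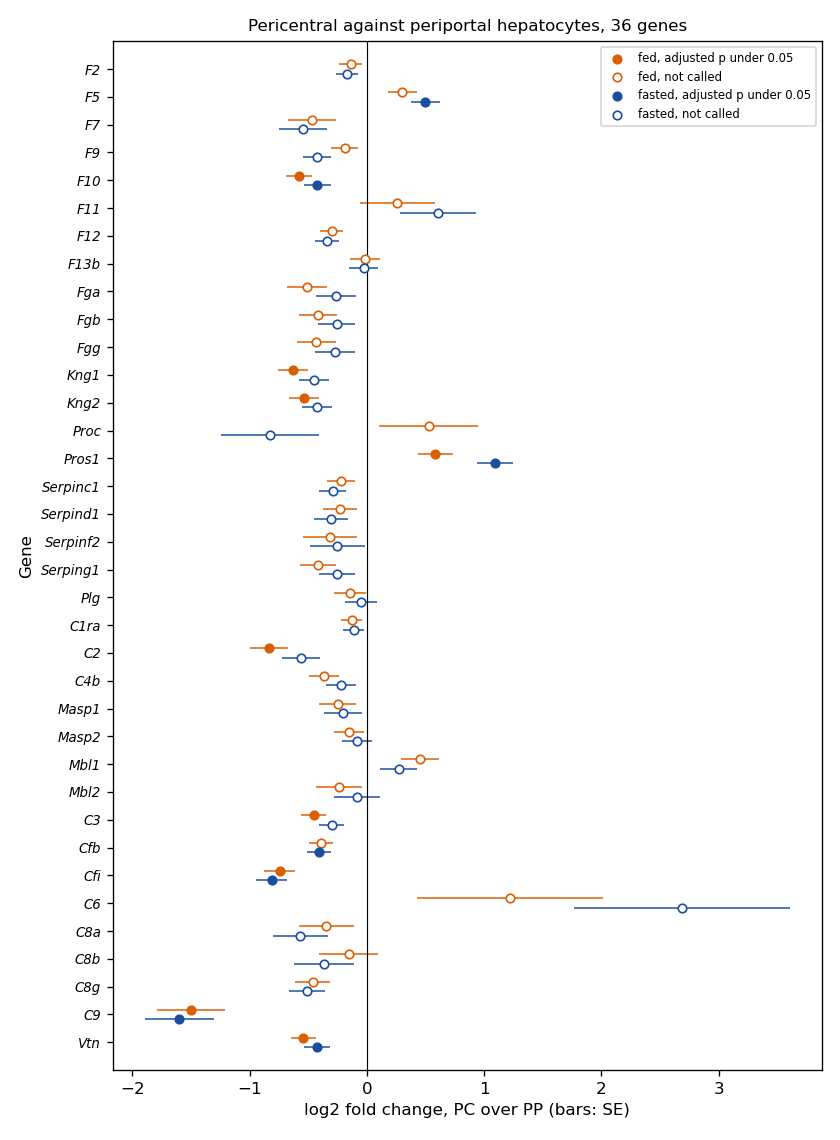
Log2 fold change of PC over PP for each of the 36 genes, in fed (orange) and in fasted mice (blue), with bars of 1 SE and filled points where the adjusted p was under 0.05. Most points lie left of 0, C9 lies farthest left at -1.50 and -1.60, and Pros1 and F5 lie to the right. C6, F11 and Mbl1 also lie to the right and are not called.

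Among the procoagulant factors, 4 of 8 were called lower in PC over both feeding states (F7, F9, F10 and F12) and 1 higher (F5). The shares of all genes were 6.5% lower and 6.47% higher. Factor X (F10, ENSMUSG00000031444, chr8:13037308-13056676 in GRCm38), the protease that activates thrombin, read 414, 383 and 455 CPM in the fed PC libraries and 567, 699 and 603 in fed PP. In fasted mice it read 455, 397 and 415 CPM in PC and 553, 568 and 575 in PP, so every PC library lay below every PP library in both states. Its difference was -0.58 ± 0.11 in fed mice (adjusted p = 0.011), -0.42 ± 0.11 in fasted mice (adjusted p = 0.046) and -0.50 ± 0.08 over both (adjusted p = 0.0012). The fed call was lost when replicate 2 of either fed PC or fed PP was left out, and the fasted call under 13 of 19 alternatives, while the call over both states was kept under all 18. Factor VII (F7, chr8:13026034-13035809), which starts clotting with tissue factor and lies 1.5 kb from F10, was more scattered, at 131, 132 and 145 CPM in fed PC, 136, 226 and 203 in fed PP, 155, 92.8 and 105 in fasted PC and 166, 195 and 153 in fasted PP. The zones overlapped in both feeding states. Its difference over both states was -0.51 ± 0.14 (adjusted p = 0.037), a call lost under 12 of 18 alternatives. Without fasted PC replicate 1, F7 was also called in fasted mice (-0.80, adjusted p = 0.024).

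Factor IX (F9, chrX:59999464-60030759), the factor lacking in haemophilia B, read 200.02, 226 and 199.6 CPM in fed PC against 244, 251 and 219.7 in fed PP. After fasting it read 217, 174 and 189.7 CPM in PC against 251, 292 and 238 in PP, a gap with no overlap, whereas the fed groups overlapped. Its difference over both states was -0.31 ± 0.08 (adjusted p = 0.029), and the call was lost under 9 of 18 alternatives. F9 was also called in fasted mice without fasted PC replicate 1 (-0.52, adjusted p = 0.026). Factor XII (F12, chr13:55417958-55426793), which starts the contact route, was at 436, 479.7 and 437 CPM in fed PC and 522, 569 and 575 in fed PP. In fasted mice it was at 560.3, 574 and 571 CPM in PC and 776, 712 and 669 in PP. The zones did not overlap in either state, and the difference over both was -0.32 ± 0.07 (adjusted p = 0.0094), kept under all 18 alternatives.

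Factor V (F5, chr1:164151838-164220277), the cofactor of factor X in making thrombin, went the other way. It read 735, 704 and 643 CPM in fed PC against 600.3, 529.7 and 559 in fed PP, and 838, 891 and 882 CPM in fasted PC against 555, 558 and 735 in fasted PP. All PC libraries lay above the PP libraries of the same state. The difference was 0.30 ± 0.12 in fed mice (adjusted p = 0.23), 0.50 ± 0.12 in fasted mice (adjusted p = 0.032, lost under 7 of 19 alternatives) and 0.40 ± 0.09 over both (adjusted p = 0.0091, kept under all 18). Prothrombin (F2, chr2:91625320-91636414) read 1854, 1777 and 1808 CPM in fed PC, 1997, 2086 and 1906 in fed PP, 2207, 2120.3 and 2182 in fasted PC and 2437, 2530.1 and 2339.7 in fasted PP. Its zone difference of -0.15 ± 0.07 did not pass the test (adjusted p = 0.17), although the zones did not overlap in either state. F13b, the carrier subunit of the fibrin-crosslinking factor XIII, was nearly level at -0.02 ± 0.09 (adjusted p = 0.92), and F11 at 11.5 to 42.8 CPM had a difference of 0.43 ± 0.23 (adjusted p = 0.27).

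The 3 fibrinogen chains, whose genes lie side by side on chromosome 3 with gaps of 11 and 6.5 kb, did not pass the test between zones. Fga (chr3:83026076-83033627) read 2430.2, 2223 and 2457 CPM in fed PC, 3345, 4095 and 2682 in fed PP, 3727, 2445 and 3069 in fasted PC and 3469, 3952 and 3643 in fasted PP. The fed zones did not overlap and the fasted zones did, with fasted PC replicate 1 among the PP values. The differences over both states were -0.38 ± 0.12 for Fga (adjusted p = 0.055), -0.34 ± 0.11 for Fgb (adjusted p = 0.072) and -0.35 ± 0.12 for Fgg (adjusted p = 0.076). Without fasted PC replicate 1 all 3 were called, at -0.46, -0.40 and -0.43 with adjusted p = 0.021, 0.035 and 0.024, and DESeq2 on all libraries also called all 3. The per-kilobase ratio of Fgg to Fgb was 1.45 ± 0.05 in fed PC, 1.47 ± 0.06 in fed PP, 1.45 ± 0.06 in fasted PC and 1.46 ± 0.06 in fasted PP, and that of Fga to Fgb was 1.65 ± 0.10, 1.76 ± 0.08, 1.61 ± 0.07 and 1.62 ± 0.14 in the same order.

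Of the kininogens, precursors of bradykinin that also carry factor XI and prekallikrein in plasma, both genes were lower in PC. Kng1 (chr16:23057865-23082078) read 1644, 1486 and 1671 CPM in fed PC, 2476, 2808 and 2155 in fed PP, 2131, 1797 and 1866 in fasted PC and 2465, 2897 and 2542 in fasted PP. Kng2 (chr16:22985854-23029482), its neighbour 28.4 kb away, read 253, 226 and 229 CPM in fed PC, 284 to 373 in fed PP, 267 to 332 in fasted PC and 369.9 to 411 in fasted PP. In neither gene did the zones overlap in either feeding state. The differences over both states were -0.54 ± 0.09 for Kng1 (adjusted p = 0.0015) and -0.48 ± 0.09 for Kng2 (adjusted p = 0.0038), each kept under all 18 alternatives. In fed mice alone they were -0.63 ± 0.13 (adjusted p = 0.012) and -0.53 ± 0.13 (adjusted p = 0.033), and in fasted mice -0.45 ± 0.13 (adjusted p = 0.057) and -0.42 ± 0.13 (adjusted p = 0.078). The fed calls were lost under 2 and 9 of 19 alternatives, and without fasted PC replicate 1 both genes were called in fasted mice (-0.53 and -0.54, adjusted p = 0.038 and 0.031). The genes are close paralogs, so reads they share were divided between them by the authors' quantification.

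Among the anticoagulants, serpins and plasminogen, 1 of 7 passed the test between zones, and it was higher in PC. Over both feeding states 6.47% of all genes were called higher and 6.5% lower. Protein S (Pros1, chr16:62854307-62929346), the cofactor of activated protein C, read 58.8, 61.6 and 51.1 CPM in fed PC against 35.3, 38.7 and 40.7 in fed PP. In fasted mice it read 48.5, 71.8 and 75.2 CPM in PC against 32.0, 27.7 and 31.8 in PP, with no overlap in either state. Its difference was 0.58 ± 0.15 in fed mice (adjusted p = 0.044, lost under 7 of 19 alternatives), 1.09 ± 0.15 in fasted mice (adjusted p = 0.0012) and 0.84 ± 0.11 over both (adjusted p = 0.0002), a 1.79-fold level in PC. The fasted call was kept under all 19 alternatives and the call over both states under all 18. Sinusoidal endothelial cells also make protein S, and their 11 summed markers were at 10.6 to 17.1 CPM in fed PC, 12.8 to 21.7 in fed PP, 9.87 to 14.3 in fasted PC and 6.43 to 32.5 in fasted PP. Their part in the Pros1 difference was not tested.

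Plasminogen (Plg, chr17:12378608-12419385), the precursor of the clot-dissolving protease, read 2286, 2192 and 2060.2 CPM in fed PC, 2511, 2486 and 2243 in fed PP, 3109.6, 2269 and 2372 in fasted PC and 2937, 2737 and 2357 in fasted PP. The groups overlapped and the difference between zones was -0.10 ± 0.10 (adjusted p = 0.59). Of the serpins, antithrombin (Serpinc1) stood at -0.26 ± 0.08 (adjusted p = 0.063), heparin cofactor II (Serpind1) at -0.26 ± 0.10 (adjusted p = 0.12), alpha 2-antiplasmin (Serpinf2) at -0.28 ± 0.16 (adjusted p = 0.32) and the C1 inhibitor (Serping1) at -0.33 ± 0.11 (adjusted p = 0.065). Without fasted PC replicate 1, Serpind1 was called lower in fasted mice (-0.51, adjusted p = 0.015), and over both states Serpind1, Serpinf2 and Serping1 were called lower in PC, at -0.36, -0.45 and -0.43 with adjusted p = 0.0068, 0.029 and 0.0092. Proc, the precursor of the anticoagulant protease protein C, lay at 5.06 to 29.8 CPM with differences of 0.53 ± 0.42 in fed mice and -0.83 ± 0.42 in fasted mice, neither called (adjusted p = 0.62 and 0.32).

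All 3 genes of C3 and the alternative route (C3, Cfb and Cfi) were called lower in PC over both feeding states, beside 6.5% of all genes. C3 (chr17:57203970-57228136) read 9642, 11457 and 9251 CPM in fed PC and 13309, 13875 and 14357 in fed PP. In fasted mice it read 13109.9, 12751 and 12745 CPM in PC and 15929, 15194 and 16369 in PP, again with no overlap. Its difference was -0.45 ± 0.11 in fed mice (adjusted p = 0.029, lost under 11 of 19 alternatives), -0.30 ± 0.11 in fasted mice (adjusted p = 0.14) and -0.38 ± 0.08 over both (adjusted p = 0.0053, kept under all 18). Factor B (Cfb, chr17:34856374-34862518), the protease subunit of the alternative C3 convertase, read 1305, 1263 and 1208 CPM in fed PC, 1656, 1791 and 1503 in fed PP, 1275, 1225 and 1173 in fasted PC and 1533, 1616 and 1725 in fasted PP. The zones were apart in both states, with a difference of -0.40 ± 0.07 over both (adjusted p = 0.0033) and -0.41 ± 0.11 in fasted mice alone (adjusted p = 0.038, lost under 10 of 19 alternatives).

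Factor I (Cfi, chr3:129835884-129875332), the protease that inactivates C3b and C4b, read 488, 479 and 453 CPM in fed PC against 798, 878 and 703 in fed PP, and 564, 429 and 443 CPM in fasted PC against 777, 843 and 897 in fasted PP. Each PP library exceeded each PC library. The difference was -0.74 ± 0.13 in fed mice (adjusted p = 0.0051), -0.81 ± 0.13 in fasted mice (adjusted p = 0.0026) and -0.78 ± 0.09 over both (adjusted p = 0.00012), and it was called under every alternative tried in each of these comparisons. The PP level was 1.71 times the PC level.

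In the classical and lectin routes, 1 of 7 genes was called over both states, beside 6.5% of all genes lower and 6.47% higher. C2 (chr17:34862604-34898265), the protease subunit of their C3 convertase, lies 0.1 kb from Cfb and read 63.7, 58.1 and 56.7 CPM in fed PC, 91.6, 128 and 99.6 in fed PP, 75.6, 52.4 and 49.1 in fasted PC and 80.0, 92.8 and 88.9 in fasted PP. The zones did not overlap, with a difference of -0.84 ± 0.16 in fed mice (adjusted p = 0.01), -0.56 ± 0.16 in fasted mice (adjusted p = 0.063) and -0.70 ± 0.12 over both (adjusted p = 0.0014, kept under all 18 alternatives). The fed call was lost under 3 of 19 alternatives, and without fasted PC replicate 1 C2 was called in fasted mice (-0.79, adjusted p = 0.0059). C2 and Cfb share 1656 and 2246 bases of exon on the same strand with the readthrough gene Gm20547, listed at 0 to 2.68 CPM, so their levels depend on how the authors' quantification divided the shared reads. C4b, the partner of C2, was at -0.30 ± 0.09 (adjusted p = 0.052) and at -0.34 without fasted PC replicate 1 (adjusted p = 0.030), and its near-identical copy C4a was not analysed here. Mannose-binding lectin C (Mbl2, chr19:30232942-30239687) read 413, 403 and 334 CPM in fed PC, 498, 518 and 339 in fed PP, 509.9, 377 and 352 in fasted PC and 497, 469.9 and 345 in fasted PP, and its zones overlapped (-0.16 ± 0.14, adjusted p = 0.54). Mbl1 had a positive value of 0.36 ± 0.11 (adjusted p = 0.054), or 0.40 without that library (adjusted p = 0.047). The protease genes C1ra (-0.12 ± 0.06), Masp1 (-0.23 ± 0.11) and Masp2 (-0.12 ± 0.09) had adjusted p = 0.26, 0.24 and 0.47. Masp2 shares 1817 bases of exon with Tardbp on the other strand, which unstranded reads cannot separate. The same limit holds for Serpinc1 (2942 bases, Zbtb37), Plg (420, Slc22a3), F5 (262, Gm16548), C2 (161, Zbtb12) and Fgg (115, Gm30097).

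Of the 6 terminal genes, 3 were called lower in PC over both states (C9, Vtn and C8g), beside 6.5% of all genes. The widest zone difference among the called genes was that of C9 (chr15:6445327-6498751), the protein that polymerises into the pore. It read 89.4, 78.1 and 57.0 CPM in fed PC and 211, 233 and 192 in fed PP. After fasting it read 79.3, 30.6 and 45.2 CPM in PC and 144, 144 and 183 in PP. No PC library reached a PP library, and the highest fasted PC value came from replicate 1. The difference was -1.50 ± 0.29 in fed mice (adjusted p = 0.012), -1.60 ± 0.29 in fasted mice (adjusted p = 0.0079) and -1.55 ± 0.21 over both (adjusted p = 0.0005), a 2.93-fold level in PP. The call over both states was kept under all 18 alternatives, the fed call was lost without fed PC replicate 2, fed PC replicate 3 or fed PP replicate 2, and the fasted call was lost when only the fasted groups were fitted.

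Vitronectin (Vtn, chr11:78499091-78502324), which keeps C5b to C9 out of membranes, read 1755, 1584 and 1599 CPM in fed PC, 2459, 2411 and 2315 in fed PP, 2197, 1862 and 2030.4 in fasted PC and 2534, 2675 and 2967 in fasted PP. The zones were apart in both states, with differences of -0.54 ± 0.11 in fed mice (adjusted p = 0.012, lost under 3 of 19 alternatives), -0.43 ± 0.11 in fasted mice (adjusted p = 0.037, lost under 11 of 19 alternatives) and -0.48 ± 0.08 over both (adjusted p = 0.0011). C8g (chr2:25498651-25501719), the lipocalin-like chain of C8, read 202, 188 and 163 CPM in fed PC, 272, 278 and 212 in fed PP, 175, 177 and 176 in fasted PC and 242, 307 and 205 in fasted PP. Its zones did not overlap and differed by -0.49 ± 0.11 over both states (adjusted p = 0.0093). The other C8 chains were not called, at -0.46 ± 0.17 for C8a (adjusted p = 0.1) and -0.26 ± 0.18 for C8b (adjusted p = 0.42). C6 was at 4.80, 5.64 and 3.62 CPM in fed PC, 0.853, 2.02 and 3.22 in fed PP, 0.206, 2.71 and 6.49 in fasted PC and 0.752, 0.264 and 0.456 in fasted PP. Its difference of 1.95 ± 0.61 had an adjusted p of 0.061, and became 2.24 ± 0.37 with an adjusted p of 0.002 without fasted PC replicate 1, which held the lowest value of all 12 libraries; the fasted difference alone was then 3.24 (adjusted p = 0.0055).

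**Figure D3:**
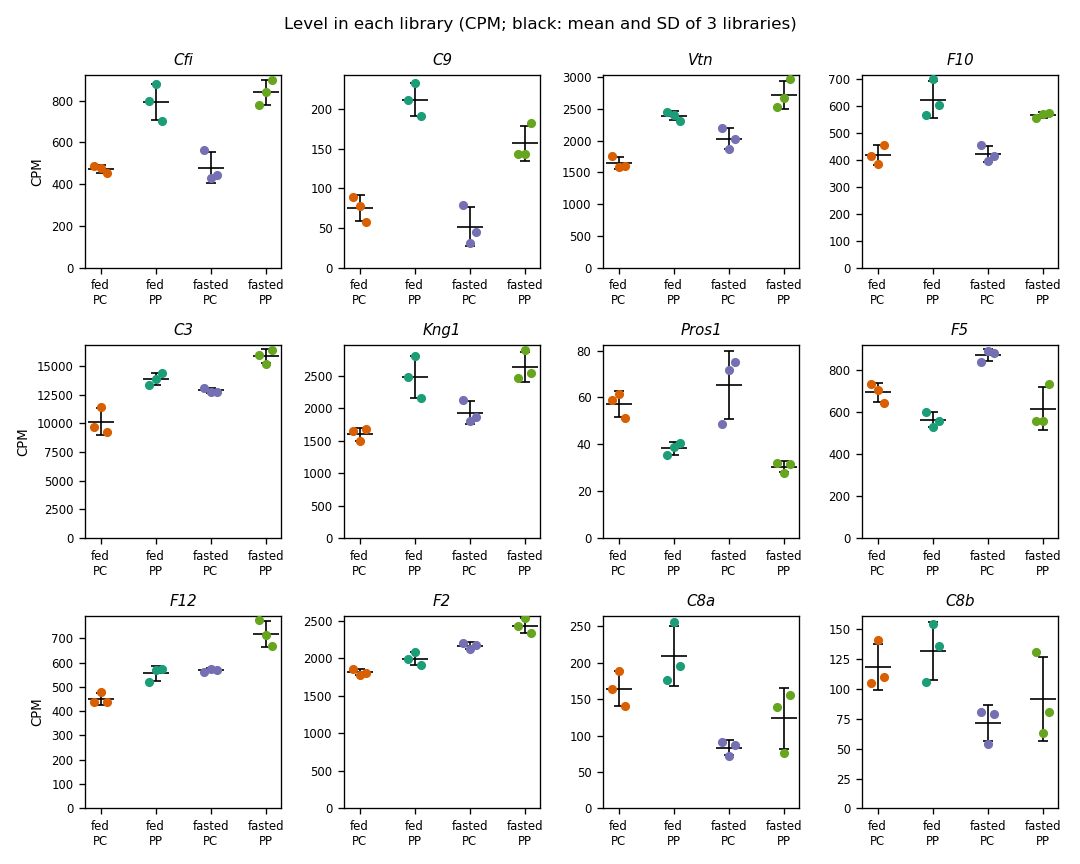
Level of 12 genes in each library (CPM, axis from 0), with the mean and SD of 3 libraries in black, for fed PC, fed PP, fasted PC and fasted PP. For Cfi, C9 and F10 every PC point lies below every PP point of either state, whereas F12 and F2 are raised and C8a is lowered in the fasted groups.

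Sequence upstream of these genes is shown for 3 genes lower in PC (Kng2, F9 and C9) and for both genes higher in PC (F5 and Pros1). The 3 are examples and do not stand for all genes lower in PC. Each is the 300-base RefSeq window from 250 bases before to 50 bases after the gene's start in GRCm38.p6, written 5′ to 3′ along the gene, with matches to any of 4 motifs in capitals. The motifs, searched on both strands, were GTTAATNAT for HNF1, TGNNCTTTG for a partial site of HNF4, TTGCNNAA for C/EBP factors and TTCNNNGAA or TTCNNGAA for STAT3, all of them factors of liver-specific or acute phase transcription. The windows are chr16:23029052-23029351 (minus strand) for Kng2, chrX:59999214-59999513 (plus strand) for F9, chr15:6445096-6445395 (plus strand) for C9, chr1:164151585-164151884 (plus strand) for F5 and chr16:62854057-62854356 (plus strand) for Pros1.
Kng2: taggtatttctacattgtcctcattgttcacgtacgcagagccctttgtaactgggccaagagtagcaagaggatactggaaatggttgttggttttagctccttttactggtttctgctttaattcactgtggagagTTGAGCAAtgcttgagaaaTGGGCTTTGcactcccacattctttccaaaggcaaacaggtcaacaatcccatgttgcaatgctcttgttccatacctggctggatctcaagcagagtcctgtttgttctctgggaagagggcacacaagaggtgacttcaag
F9: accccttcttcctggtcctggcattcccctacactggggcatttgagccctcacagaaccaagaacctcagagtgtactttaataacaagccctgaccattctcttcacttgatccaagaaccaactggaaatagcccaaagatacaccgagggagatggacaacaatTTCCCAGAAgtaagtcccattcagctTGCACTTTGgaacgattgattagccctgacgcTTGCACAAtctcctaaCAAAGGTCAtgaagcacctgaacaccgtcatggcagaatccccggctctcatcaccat
C9: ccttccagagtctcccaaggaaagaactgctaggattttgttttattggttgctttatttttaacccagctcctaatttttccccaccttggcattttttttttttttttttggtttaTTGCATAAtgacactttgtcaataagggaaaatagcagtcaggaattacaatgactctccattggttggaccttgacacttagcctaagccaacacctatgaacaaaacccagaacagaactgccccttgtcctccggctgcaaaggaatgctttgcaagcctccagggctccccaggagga
F5: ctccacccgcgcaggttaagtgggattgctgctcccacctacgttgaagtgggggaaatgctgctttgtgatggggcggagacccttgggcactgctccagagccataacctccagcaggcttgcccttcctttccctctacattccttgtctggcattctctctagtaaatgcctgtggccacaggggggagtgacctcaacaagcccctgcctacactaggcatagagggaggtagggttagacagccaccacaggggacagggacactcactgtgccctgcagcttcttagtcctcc
Pros1: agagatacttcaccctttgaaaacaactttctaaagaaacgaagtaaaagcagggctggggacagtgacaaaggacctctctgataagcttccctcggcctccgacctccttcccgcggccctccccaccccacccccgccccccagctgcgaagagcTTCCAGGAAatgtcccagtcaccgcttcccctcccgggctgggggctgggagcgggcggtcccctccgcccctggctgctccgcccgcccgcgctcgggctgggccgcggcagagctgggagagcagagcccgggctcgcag

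Kng2 held a C/EBP match and an HNF4 partial site, F9 held 2 HNF4 partial sites, a C/EBP match and a STAT3 match, C9 held a C/EBP match, Pros1 held a STAT3 match and F5 held no match. The windows of F10 and F12, which were also lower in PC and are not shown, held no match either. RefSeq windows were found for 27 of the 36 genes used here. These genes had 28 windows, since C8g has 2. Of the 27 genes, 7 held an HNF4 partial site, 9 a C/EBP match, 9 a STAT3 match and 2 (F13b and Fga) an HNF1 match, where 6.36%, 10.8%, 16.0% and 0.801% of all 32851 windows, counted singly, held them. Of the 9 genes lower in PC that had a window (10 windows), 4 held an HNF4 partial site, 4 a C/EBP match, 3 a STAT3 match and 0 an HNF1 match. A match is a run of letters and no evidence of binding, and a window with no match shows only that these letters are not in it.

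The second question was what 24 h of fasting did in each zone. Few of the genes changed. In PC, 2 of 36 rose (F12 and C3) and 1 fell (C8a), where 11.1% of all genes tested rose and 10.2% fell. In PP, 1 rose (F12) and 1 fell (C8a), where 8.39% rose and 9.5% fell. Over both zones 6 rose (F2, F12, Fgb, Fgg, C3 and Vtn) and 2 fell (C8a and C8b), against 17.8% and 17.5% of all genes, a share of the listed genes near the background for rises and under it for falls. The median log2 change of the 36 genes was 0.06 in PC, 0.06 in PP and 0.02 over both. Scaled by total counts alone, the calls over all genes moved to 8.48% higher and 12.8% lower in PC, 6.39% and 12.6% in PP, and 13.1% and 21.9% over both, and the listed genes over both zones became 2 higher and 4 lower. Without fasted PC replicate 1 they became 3 higher and 4 lower over both zones, with F2, F12 and C3 still higher. The shares of all genes were then 16.4% higher and 17.7% lower. In PC alone they became 0 higher and 2 lower (C8a and C9), beside 9.55% and 10.5% of all genes. That library enters the PP comparison only through the filter, the scaling, the shared spread and the adjustment of p-values. Without it, C8a was not called in PP (adjusted p = 0.053). Pros1 (-0.32, adjusted p = 0.047) and C6 (-2.05, adjusted p = 0.025) were called lower there, beside 10.3% of all genes. The platelet genes Itga2b (1.26 ± 0.28, adjusted p = 0.0038) and Gp1ba (1.12 ± 0.25, adjusted p = 0.0044) rose over both zones, and their part in the fasting results was not tested.

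**Figure D4:**
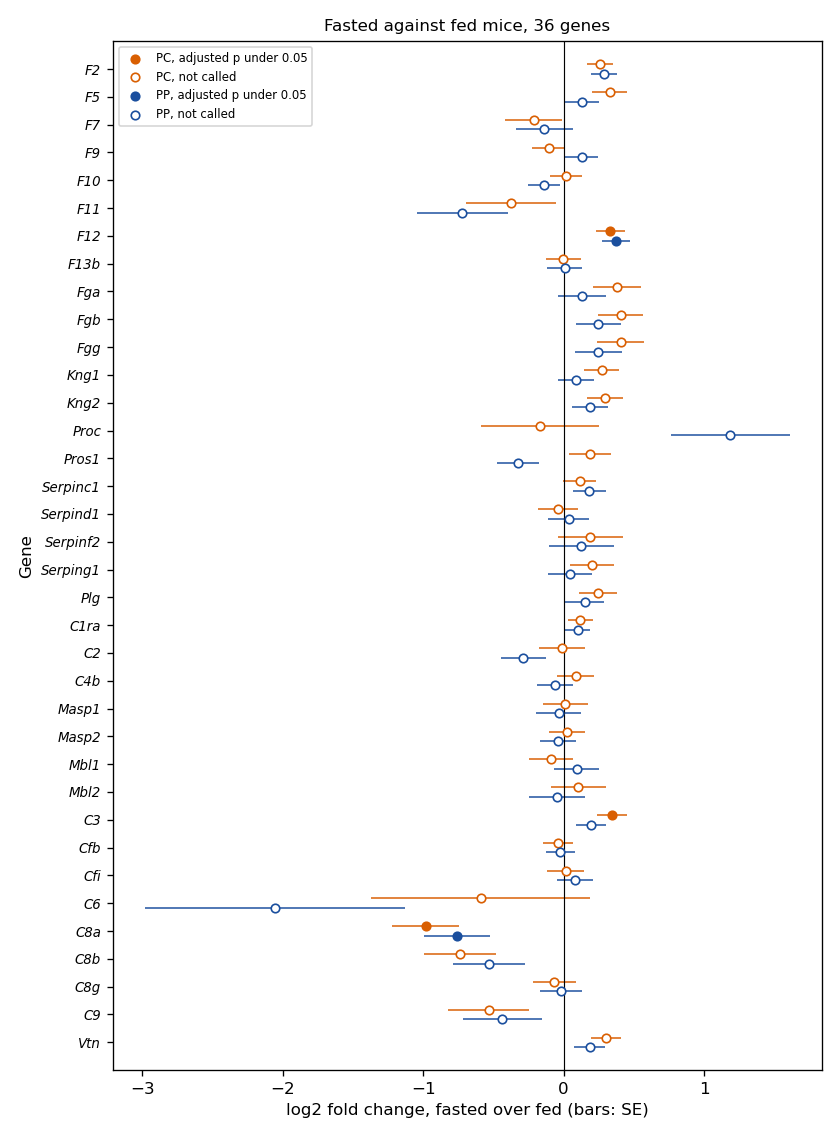
Log2 fold change of fasted over fed for each of the 36 genes, in PC (orange) and in PP (blue), with bars of 1 SE and filled points where the adjusted p was under 0.05. Most points lie near 0, with F12 to the right and C8a, C8b and C9 to the left in both zones. In PP, C6 lies farther left and Proc farther right than these, both low in level and not called.

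F12 rose by 0.33 ± 0.10 in PC (adjusted p = 0.032), by 0.37 ± 0.10 in PP (adjusted p = 0.023) and by 0.35 ± 0.07 over both zones (adjusted p = 0.002). Every fasted library exceeded every fed library of its zone, and the change over both zones was called under all 18 alternatives, whereas the PC call was lost under 9 of 19 and the PP call under 5 of 19. F2 changed by 0.26 ± 0.09 in PC (adjusted p = 0.071), 0.29 ± 0.09 in PP (adjusted p = 0.054) and 0.27 ± 0.07 over both (adjusted p = 0.007), also with no overlap of fed and fasted libraries in either zone and under all 18 alternatives. Its spread within groups was small, with standard deviations of 38.6 to 95.2 CPM on means of 1813 to 2435 CPM.

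Fgb read 2407, 2336 and 2291 CPM in fed PC, 3634, 2599.6 and 3084 in fasted PC, 2949.8, 3919 and 2517 in fed PP and 3836, 3700.0 and 3612 in fasted PP. Fgg read 1571, 1576 and 1452 CPM in fed PC, 2467, 1686 and 1939 in fasted PC, 2044, 2525 and 1625 in fed PP and 2623, 2462 and 2270.3 in fasted PP. Both were apart in PC and overlapped in PP. The changes over both zones were 0.33 ± 0.11 for Fgb (adjusted p = 0.04) and 0.33 ± 0.12 for Fgg (adjusted p = 0.049), lost under 11 and 13 of 18 alternatives, and fell to 0.25 and 0.24 without fasted PC replicate 1 (adjusted p = 0.097 and 0.12). Fga changed by 0.25 ± 0.12 (adjusted p = 0.12).

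C3 rose by 0.35 ± 0.11 in PC (adjusted p = 0.036, lost under 14 of 19 alternatives), and by 0.27 ± 0.08 over both zones (adjusted p = 0.015), a call lost only when libraries were scaled by total counts (0.19, adjusted p = 0.061). The change in PP was 0.19 ± 0.11 (adjusted p = 0.24). Vtn rose by 0.24 ± 0.08 over both zones (adjusted p = 0.026, lost under 9 of 18 alternatives, among them leaving out fasted PC replicate 1). Cfb (-0.03 ± 0.07) and Cfi (0.05 ± 0.09), which differed between zones, had adjusted p = 0.78 and 0.71 for fasting.

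Fasting lowered C8a and C8b. C8a (chr4:104815679-104876398), a chain of C8 that inserts into the membrane, read 164, 188 and 141 CPM in fed PC and 90.9, 71.9 and 86.9 in fasted PC. In PP it read 176, 255 and 195 CPM fed and 139.5, 75.5 and 155 fasted. Fasted libraries lay below fed ones in both zones. It changed by -0.98 ± 0.24 in PC (adjusted p = 0.012, lost without fasted PC replicate 2), -0.76 ± 0.24 in PP (adjusted p = 0.045, lost under 13 of 19 alternatives) and -0.87 ± 0.17 over both (adjusted p = 0.0019, kept under all 18). C8b (chr4:104766317-104804548), its neighbour 11.1 kb away and partner chain, read 105, 141 and 109.8 CPM in fed PC, 80.5, 53.7 and 79.0 in fasted PC, 106, 154 and 136 in fed PP and 131, 63.4 and 80.7 in fasted PP. The PC groups were apart and the PP groups overlapped. Its change over both zones was -0.63 ± 0.18 (adjusted p = 0.019, kept under all 18 alternatives). C8g, the third chain, which lies on chromosome 2, changed by -0.04 ± 0.11 (adjusted p = 0.8). The per-kilobase ratio of C8g to C8a thus went from 3.49 ± 0.37 in fed PC to 6.62 ± 0.88 in fasted PC. In PP it was 3.84 ± 0.82 fed and 7.34 ± 4.58 fasted, where the libraries overlapped (3.36 to 4.79 fed, 4.09 to 12.6 fasted). C9 changed by -0.48 ± 0.20 over both zones (adjusted p = 0.085) and by -0.72 ± 0.14 without fasted PC replicate 1 (adjusted p = 0.0025).

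The remaining genes did not pass the test for fasting in edgeR. In the classical and lectin routes, 0 of 7 were called over both zones, where 17.8% of all genes rose and 17.5% fell. Of these 7, 0 had an unadjusted p under 0.05 and 0 were called in DESeq2, and values ran from -0.15 (C2) to 0.11 (C1ra). C2 was called lower without fasted PC replicate 1 (-0.27, adjusted p = 0.0495). Among anticoagulants, serpins and plasminogen, 0 of 7 were called over both zones, beside 17.8% of all genes higher and 17.5% lower. Over both zones 0 of these 7 had an unadjusted p under 0.05 and 0 were called in DESeq2. Their values over both zones ran from -0.07 (Pros1) to 0.51 ± 0.30 (Proc, adjusted p = 0.21). In PP alone, 1 of the 7 had an unadjusted p under 0.05, and DESeq2 called Proc higher there (1.19 ± 0.39, adjusted p = 0.016). Of the procoagulant and contact factors not called, F5 was at 0.23 ± 0.09 (adjusted p = 0.061), Kng2 at 0.24 ± 0.09 (adjusted p = 0.056), Kng1 at 0.18 ± 0.09 (adjusted p = 0.14) and F11 at -0.55 ± 0.23 (adjusted p = 0.085). F7 (-0.18), F9 (0.01), F10 (-0.06) and F13b (0.00) had adjusted p between 0.37 and 0.98.

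The third question was whether fasting acted differently in the zones, tested as an interaction. Of all genes tested 0% were called in edgeR and 465 had an unadjusted p under 0.05, while DESeq2 called 11 genes. Of the 36 genes 0 were called by either tool and 2 had an unadjusted p under 0.05: Pros1, whose change was larger in PC by 0.51 ± 0.21, and Proc, whose change was larger in PP (-1.36 ± 0.60), each with an adjusted p of 0.997. The power of this test was low. In data simulated from these libraries, 34.3% of genes with a true interaction of 2-fold and 4.5% of those with 1.5-fold were recovered.

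Other genes of the same systems were counted from lists. Of 23 further complement genes tested, 5 were called lower in PC over both feeding states and 2 higher, beside 6.5% and 6.47% of all genes. Hc, which encodes C5, the first protein of the terminal sequence, read 594, 616 and 601 CPM in fed PC, 891, 881 and 881 in fed PP, 643, 491 and 534 in fasted PC and 744, 785 and 906 in fasted PP. Its zones were apart in both states and differed by -0.55 ± 0.08 (adjusted p = 0.00091). Cfhr2 differed by -0.47 ± 0.07 (adjusted p = 0.00089) and Clu (clusterin, another inhibitor of the pore) by -0.34 ± 0.08 (adjusted p = 0.018). C4bp, which with factor I breaks down C4b, was higher in PC by 0.50 ± 0.10 (adjusted p = 0.005), as was Cd59a, a membrane inhibitor of C9, by 0.41 ± 0.12 (adjusted p = 0.031). C7, a component of the pore, was at 0 in every library, and fasting raised 2 of the 23 over both zones (17.8% of all genes rose), Cfp (properdin, at most 1.76 CPM) and Clu, at 1.03 ± 0.31 and 0.31 ± 0.08 (adjusted p = 0.019 and 0.013).

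Of 18 further clotting genes tested, 2 were called lower in PC over both states (Hgfac, -0.42 ± 0.09, and Cpb2, -0.39 ± 0.08, which encodes an inhibitor of clot lysis) and 1 higher (Tfpi2, 0.42 ± 0.10), beside 6.5% and 6.47% of all genes. Fasting called 6 lower and 2 higher over both zones, beside 17.5% and 17.8% of all genes. The largest falls were those of Lman1 and Mcfd2, which form the receptor that carries factors V and VIII out of the endoplasmic reticulum. Lman1 read 225 to 278 CPM in fed PC, 247 to 312 in fed PP, 152 to 177 in fasted PC and 163 to 204 in fasted PP. Mcfd2 read 292 to 305 CPM in fed PC, 266 to 298 in fed PP, 196 to 211 in fasted PC and 146 to 184 in fasted PP. Neither gene's fed and fasted libraries overlapped, and they changed by -0.66 ± 0.09 (adjusted p = 0.0002) and -0.63 ± 0.08 (adjusted p = 5.5e-05). F5 itself did not pass edgeR's test over both zones, whereas DESeq2 called it higher (0.23, adjusted p = 0.032). Tfpi2 (-0.39 ± 0.10) and Habp2 (-0.37 ± 0.06) also fell, and Hgfac rose by 0.26 ± 0.09 (adjusted p = 0.045, lost under 11 of 18 alternatives).

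Of 8 tested genes of vitamin K use, fasting lowered 4 and raised 1, in PC, in PP and over both zones. Over both zones 17.5% of all genes fell and 17.8% rose. Ggcx, the carboxylase that modifies factors II, VII, IX and X, read 27.8, 31.6 and 30.3 CPM in fed PC, 18.2, 15.6 and 12.6 in fasted PC, 21.6, 28.9 and 30.5 in fed PP and 14.5, 20.6 and 16.4 in fasted PP. Its fed and fasted libraries did not overlap within either zone, and it fell by 0.80 ± 0.12 (adjusted p = 0.00033). Vkorc1l1, a reductase that recycles vitamin K, changed by -0.68 ± 0.10 (adjusted p = 0.0002), and Gas6, a vitamin K-dependent ligand related to protein S, by -1.80 ± 0.18 (adjusted p = 3.1e-05). Aifm2, a quinone reductase that can reduce vitamin K, rose by 0.86 ± 0.08 (adjusted p = 9.4e-06). Gas6 also differed between zones, by 1.52 ± 0.18 (adjusted p = 0.00022), being higher in PC as Pros1 was. Vkorc1, the main recycling enzyme and target of warfarin, was not called and lay between 93.1 and 146 CPM in all libraries. Of the clotting factors that need this carboxylation, F2 rose over both zones and F7, F9, F10, Proc and Pros1 did not pass edgeR's test for fasting.

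**Figure D5:**
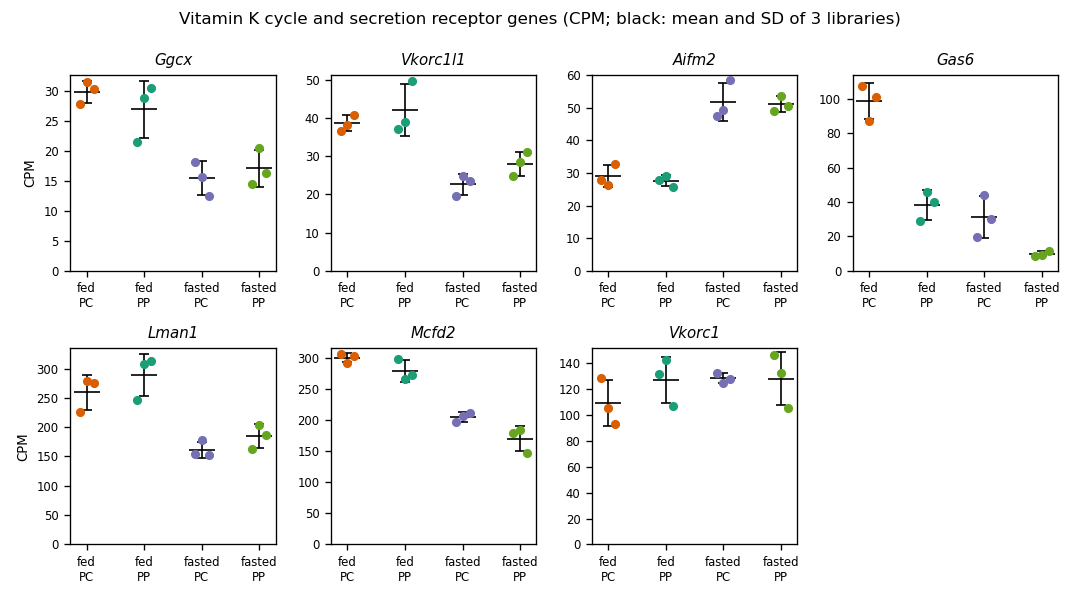
Level of 5 genes of vitamin K use (Ggcx, Vkorc1l1, Aifm2, Gas6, Vkorc1) and of the secretion receptor genes Lman1 and Mcfd2 in each library (CPM, axis from 0), with the mean and SD of 3 libraries in black. Ggcx, Vkorc1l1, Lman1 and Mcfd2 are lower and Aifm2 is higher in both fasted groups, while Vkorc1 stays between 93.1 and 146 CPM.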

How the data were processed

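Total RNA was sequenced from 12 libraries in 4 groups of 3. The deposited values are estimated counts per gene, made by the authors with kallisto 0.46.0 on mm10, per the submitters' processing notes. The annotation and the step from transcripts to genes are not given in the sources used here. The NEBNext Ultra kit named in the labels' protocols does not mark strand. Between 28% and 32.8% of the values were not whole; they were rounded, which moved no library's total by more than 120.8 counts. Of 28030 identifiers, 27566 matched GENCODE M21 (GRCm38) and 464 did not.

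Genes were filtered with filterByExpr, scaled by TMM and fitted with edgeR 4.0.16 (limma 3.58.1, R 4.3.3) as a robust quasi-likelihood model of all 12 libraries, leaving 8 residual degrees of freedom. The common BCV, the spread between replicates beyond counting error, was 0.2055. The 7 comparisons were the zone in fed mice, in fasted mice and over both, fasting in PC, in PP and over both, and their interaction; p-values were adjusted over the 12086 genes. Every listed gene called in a comparison, and the gene with the highest level per kilobase in each role, was described in full, and up to 4 called genes per direction were named from each other list; a few of these are counted but not reported by name here. The members and lists were chosen with earlier results of these data known. The labels call the libraries biological replicates but do not say whether PC and PP libraries of one number share a mouse. No pair of libraries of one group agreed within sampling noise (chi-square per degree of freedom 23.9 to 79.8).

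The model was tested on simulated data. For the zone over both feeding states, 49.3% of genes changed by 1.5-fold and 95.5% of those changed by 2-fold were recovered, of 67 each among 11832 genes. Alternatives were scaling by total counts, no filter, DESeq2 1.42.0, a fit of only the groups compared, a replicate block, and leaving out each library in turn, DESeq2's size factors in place of TMM, and TMM without Alb. These are 19 for the comparisons within a zone or state and 18 for those over both.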

Additional observations from a re-analysis of the deposited data

How the results depend on the processing

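No call of a listed gene changed direction under any alternative run. DESeq2 called more of the 36 genes than edgeR: 15 against 7 for the zone in fasted mice, 24 against 15 for the zone over both feeding states, 7 against 3 for fasting in PC, 5 against 2 for fasting in PP and 13 against 8 for fasting over both zones. Over all genes DESeq2 also called more: 903 against 570 for the zone in fed mice, 1117 against 774 in fasted mice and 1950 against 1567 over both. For fasting the counts over all genes were 2940 against 2582 in PC, 2591 against 2162 in PP and 4533 against 4264 over both. For the interaction they were 11 against 0. DESeq2 was run on every gene with a count and edgeR on the filtered genes, so these counts cover unlike sets. For the zone over both feeding states, DESeq2 called 4.81% of its genes higher and 4.8% lower, against 6.47% and 6.5% in edgeR. For fasting over both zones its shares were 11.4% and 11%, against 17.8% and 17.5%. Scaling by total counts left 4 calls of the 36 for the zone in fasted mice and 1 for fasting in PP, and no filter left 4 for the zone in fasted mice, 1 for fasting in PC and 0 for fasting in PP, with 1 interaction over all genes. Fitting only the groups compared left 2 of the 36 (376 of all genes, against 774) for the zone in fasted mice and 1 for fasting in PP. Leaving out 1 library at a time gave 1 to 9 of the 36 for the zone in fed mice, 3 to 14 in fasted mice and 13 to 24 over both, and 0 to 3 for fasting in PC, 1 to 3 in PP and 5 to 9 over both. Over all genes it gave 292 to 701, 386 to 1005, 1164 to 1739, 1593 to 2618, 1405 to 2414 and 3549 to 4216 calls in the same order, and 0 to 2 interactions. Leaving Alb out of the total, the 36 genes held 3.64% of counts in fed PC, 4.78% in fed PP, 4.196% in fasted PC and 5.07% in fasted PP. The cause of these shifts was not tested.

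With the replicate number as a replicate block, 9, 7 and 16 of the 36 genes were called for the zone in fed mice, in fasted mice and over both, and 3, 1 and 9 for fasting in PC, in PP and over both, with 0 interactions. Over all genes the block gave 625, 796, 1627, 2696, 2223, 4340 and 0 calls. Same-numbered libraries correlated at -0.115 to 0.269 over 18 pairs. Only PC and PP libraries of one feeding state could share a mouse. In the order of their numbers these correlated at 0.269, 0.024 and 0.151 in fed and 0.193, -0.115 and 0.094 in fasted mice. Libraries of unlike number were not compared, so this check could not settle whether the numbers pair the samples.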

Other observations

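Of 25 regulators of liver and acute phase genes, fasting raised 10 and lowered 7 over both zones, beside 17.8% and 17.5% of all genes. The rises included Cebpd (2.60 ± 0.28, adjusted p = 2.6e-05), a C/EBP factor induced in the acute phase, the interleukin 1 receptor gene Il1r1 (1.88 ± 0.18, adjusted p = 2.2e-05), Ppargc1a (1.54) and Klf15 (1.27). The falls included Onecut1 (-1.26), Foxa2 (-0.97), Foxa1 (-0.61) and Esr1 (-0.58). Between zones, 5 were higher in PC, among them Nr1i3 (0.82) and Ppara (0.63), and Onecut1 was lower (-0.72), beside 6.47% and 6.5% of all genes.

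Of 19 acute phase genes that are not clotting or complement genes, 8 were lower in PC over both feeding states, beside 6.5% of all genes, among them Lcn2 (-1.46), Hpx (hemopexin, -1.45), Saa1 (-0.99) and Orm1 (-0.65), and Steap4 was higher (0.50). Fasting raised 3 of the 19 (Lcn2, Hp and Apcs, by 0.97, 0.61 and 0.37), a share near the 17.8% of all genes, and lowered Steap4 (-1.07). The mean of Lcn2 was 3.92 CPM in fed PC and 4.06 in fasted PC, and 5.71 CPM in fed PP and 20.9 in fasted PP.

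Gm45753, which shares 2267 bases of exon with Klkb1 on the same strand, lay between 9.79 and 49.3 CPM.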
